A study of Homo sapiens with 16 samples.

Results

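p53 was depleted by siRNA in cells that had also lost iASPP and had then received nutlin, and the RNA of these cells was set against that of cells that had lost iASPP alone before nutlin. The tested libraries are p53+iASPP siRNA+nutlin replicates 1 and 2, and they were compared with iASPP siRNA+nutlin replicates 1 and 2. These 4 libraries, chosen by their labels, are part of a set of 16. All cells were HCT116, an established human colon cancer line labelled as carrying wild-type p53. Both groups received iASPP siRNA, with or without p53 siRNA beside it, for 3 days, and both were then kept in Nutlin-3 for 0.5 days more. The remaining groups were p53 siRNA+nutlin and CTR siRNA+nutlin, and the same 4 siRNA conditions without nutlin, with 2 libraries in each. No label says that a replicate is a separate culture. The p-values therefore reflect only how far the 16 libraries spread within their groups, and that spread may be technical. Knockdown by siRNA leaves some transcript, and no label gives the share of cells that took it up.

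p53 is a transcription factor whose level is kept low by MDM2, a ubiquitin ligase that is itself a p53 target, and nutlin blocks the MDM2 pocket that holds p53. Once stabilised, p53 activates genes for growth arrest, cell death, metabolism and DNA repair. Its target CDKN1A encodes p21, a cyclin-dependent kinase inhibitor through which the DREAM and RB complexes switch off genes of DNA replication and mitosis. iASPP, encoded by PPP1R13L, is a member of the ASPP family that binds p53 and is known as an inhibitor of its activity. The comparison asks how much of the transcriptome of nutlin-treated, iASPP-depleted cells depends on p53.

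The values are FPKM, that is, read fragments scaled to transcript length and to the size of the library. Of 20271 genes listed, 17696 were above 0 in at least some libraries, and the 10662 with a mean of 1 FPKM or more over the 16 libraries were tested. Absolute depth is unknown. Relative depth, read from the steps between low values and set to 1 for iASPP siRNA+nutlin replicate 1, was 1.33 and 6.52 in p53+iASPP siRNA+nutlin replicates 1 and 2, and 5.92 in iASPP siRNA+nutlin replicate 2. The 2 libraries of each group stood apart, and a distance within a pair does not tell which of them departs. Over genes at or above 100 FPKM, replicates 1 and 2 differed in size by a median of 0.18 (log2) in p53+iASPP siRNA+nutlin and 0.272 in iASPP siRNA+nutlin, against 0.0506 to 0.0693 in the 5 closest pairs of the set. The p53 siRNA+nutlin pair diverged too, by 0.192. Across genes, which are not independent replicates, none of the 4 libraries correlated best with its own partner, and neither did 4 others of the set. p53+iASPP siRNA+nutlin replicate 1 correlated best with p53+iASPP siRNA replicate 2 (r = 0.982) and replicate 2 with p53 siRNA+nutlin replicate 2 (0.990), against 0.975 with each other. iASPP siRNA+nutlin replicates 1 and 2 both correlated best with CTR siRNA+nutlin replicate 2 (0.967 and 0.978), against 0.959 with each other. The main results are therefore given per library. Whether a replicate 2 library holds RNA of another condition was not tested. Of 10 markers of colon epithelium, 5 were at 1 FPKM or above in all 4 libraries (EPCAM, KRT8, KRT18, CDH1 and CDX2), while CDX1 and LGALS4 were at 0. Fibroblast markers summed to 1.22 and 0.917 FPKM in p53+iASPP siRNA+nutlin against 0.622 and 0.817 FPKM in iASPP siRNA+nutlin, and COL1A2, THY1, FAP and POSTN were at 0. Immune markers summed to 7.32 and 7.43 against 2.03 and 4.91 FPKM, with CD68 alone at 1 FPKM or above in all 4 and CD3E, CD3D, MS4A1, CD14 and NKG7 among those at 0. Endothelial markers summed to no more than 0.795 FPKM in any of the 4, with CLDN5 at 0. The part of these small sums in any result was not tested.

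The depletion of iASPP was read first. PPP1R13L (ENSG00000104881, chr19:45379634-45406349, minus strand) had 0.378 and 2.45 FPKM in p53+iASPP siRNA+nutlin and 0.807 and 1.3 FPKM in iASPP siRNA+nutlin. The groups overlapped, with a difference of 0.10 ± 0.36 (SE) on the log2(FPKM + 1) scale, on which differences are given throughout (limma, adjusted p = 0.889). RNA of bulk cultures cannot tell fewer cells that hold a transcript from less of it per cell. Without iASPP siRNA it stood at 16.8 and 14.9 FPKM in p53 siRNA+nutlin and 17.1 and 18.9 FPKM in CTR siRNA+nutlin, so iASPP was depleted on both sides of the comparison.

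With p53 depleted, 1148 genes rose and 514 fell at an adjusted p under 0.05 by limma, which is 10.8% and 4.82% of the genes tested, and 3241 (30.4%) were at an unadjusted p under 0.05. Of these, 473 rose and 181 fell by at least 2-fold on the log2(FPKM + 1) scale, which understates the change of low genes. The median difference was 0.85 among the risen genes and -0.85 among the fallen, against 0.09 over all genes tested. In each of the 1662 called genes, both p53+iASPP siRNA+nutlin libraries lay on the same side of both iASPP siRNA+nutlin libraries. Among all tested genes, 30.8% had both knockdown libraries higher and 18.6% had both lower. When each library was rescaled by the median of its gene ratios, which lowered the median of all genes by 0.092, 902 genes (8.46%) rose and 669 (6.27%) fell, so the share of rises among the calls was 57.4% instead of 69.1%.

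The size of the differences was not the same in the 2 replicates. Each replicate's difference sets libraries of the same number against each other, a match by label only. Over all genes tested the median size of the difference was 0.413 in replicate 1 and 0.203 in replicate 2. Smaller differences in replicate 2 were thus not particular to the called genes. Over the risen genes the median difference was 1.12 in replicate 1 and 0.60 in replicate 2, and it was smaller in replicate 2 for 1064 of 1148. Over the fallen genes it was -1.17 in replicate 1 and -0.53 in replicate 2, smaller in size in replicate 2 for 488 of 514. A 2-fold difference or more was seen in 1107 genes upward and 625 downward in replicate 1, and in 357 and 122 in replicate 2. What part the divergence within the pairs had in the smaller differences of replicate 2 was not tested.

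The number of calls depended on which libraries gave the estimate of the spread. All 8 groups shared it here, with 8 residual degrees of freedom. Both pairs compared differed more within themselves than the 5 close pairs, so the shared estimate may be too small for the former. With the 4 libraries alone in the fit, 2 genes passed, and 1 passed when the 5 close replicate pairs of the set were counted once. There were 580 calls without iASPP siRNA+nutlin replicate 1, without p53+iASPP siRNA+nutlin replicate 1 there were 574, and without iASPP siRNA+nutlin replicate 2 there were 3214. An exact test of 2 against 2 libraries cannot go below p = 0.333.

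**Figure D1:**
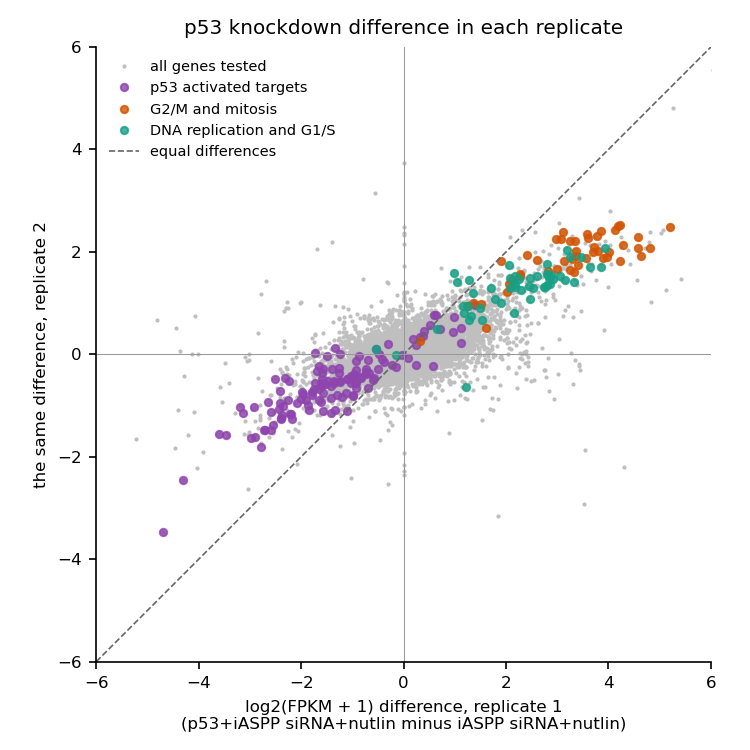
Difference in log2(FPKM + 1), p53+iASPP siRNA+nutlin minus iASPP siRNA+nutlin, in replicate 1 (horizontal axis) and replicate 2 (vertical axis), each point being a tested gene; grey points are all 10662, coloured points the 3 named lists, and the dashed line marks equal differences. Activated p53 targets lie mostly to the lower left and cell cycle genes to the upper right, and most of both lie closer to 0 in replicate 2 than in replicate 1.

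Among 21 tested regulators of p53, 5 fell and 2 rose, with a median of -0.04, beside 4.82% fallen and 10.8% risen of all genes. The share of rises was thus near that of all genes. MDM2 (ENSG00000135679, chr12:68808176-68850686, plus strand) had 8.95 and 31.5 FPKM in p53+iASPP siRNA+nutlin against 150 and 121 FPKM in iASPP siRNA+nutlin. Both knockdown libraries were lower, replicate 2 less so, and the difference was -2.92 ± 0.45 (adjusted p = 0.00216). PPM1D, the WIP1 phosphatase that acts back on p53, fell by 1.16 on the log2 scale, and TRIAP1, a small p53-induced survival factor, had 67.9 and 65 FPKM against 136 and 113 FPKM and fell by 0.89 (adjusted p = 8.7e-04). PML, the scaffold of nuclear bodies that hold p53, also fell. The acetyltransferase KAT5 and the checkpoint kinase CHEK1 rose, by 0.83 and 1.46. MDM4, the partner of MDM2, had 0.831 and 1.87 FPKM against 1.22 and 1.58 FPKM, which overlap, and TP53BP2, which encodes the activating family member ASPP2, had 4.02 and 4.75 FPKM against 5.99 and 4.76 FPKM.

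Of 18 growth arrest targets of p53, 15 were tested, 9 fell and none rose, beside 4.82% fallen and 10.8% risen of all genes. The median difference was -1.17. CDKN1A (ENSG00000124762, chr6:36676460-36687339, plus strand) had 83.1 and 141 FPKM in p53+iASPP siRNA+nutlin against 1656 and 776 FPKM in iASPP siRNA+nutlin. The knockdown libraries lay far below the others, and the gap was widest in replicate 1. The difference was -3.38 ± 0.38 (adjusted p = 5.2e-04), or -4.30 in replicate 1 and -2.45 in replicate 2. GDF15, a secreted stress cytokine, had 220 and 363 FPKM against 1513 and 1262 FPKM and fell by 2.29 ± 0.24 (adjusted p = 3.6e-04). BTG2, an antiproliferative cofactor of mRNA decay, had 14.3 and 15.8 FPKM against 100 and 46 FPKM, a difference of -2.10 ± 0.32 (adjusted p = 0.00205). For both genes the knockdown libraries did not reach the lowest library with p53. ZMAT3, an RNA-binding zinc finger protein, had 0.753 and 1.98 FPKM against 10.5 and 7.28 FPKM (-2.09, adjusted p = 0.00101). SFN, which encodes 14-3-3 sigma, PLK2, PLK3, TOB1 and GADD45A fell by 0.94 to 1.46. TGFA, which encodes a growth factor and moved least in the list, had 15.9 and 20.5 FPKM against 22.6 and 20.5 FPKM (-0.24, adjusted p = 0.396), while KLF4 alone stood above 0 (0.33, not past the threshold).

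Of 21 tested cell death targets, 19 fell and none rose, with a median of -1.21, beside 4.82% fallen and 10.8% risen of all genes. TP53I3 (ENSG00000115129, chr2:24077433-24085861, minus strand), a quinone oxidoreductase-like enzyme also known as PIG3, had 9.45 and 9.66 FPKM in p53+iASPP siRNA+nutlin against 271 and 117 FPKM in iASPP siRNA+nutlin. The knockdown libraries were nearly equal to each other and far below both others. Its fall of 4.08 ± 0.39 (adjusted p = 3.6e-04) was the greatest of any named gene, and its mean was 4.93% of that with p53. FAS, a death receptor, had 17 and 13.9 FPKM against 106 and 40.4 FPKM (-2.03 ± 0.36, adjusted p = 0.00382). TP53INP1, a nuclear stress protein, had 0.602 and 2.51 FPKM against 18.6 and 9.32 FPKM (-2.58, adjusted p = 0.00171), and the decoy TRAIL receptor TNFRSF10C had 1.63 and 5.39 FPKM against 22 and 13 FPKM (-2.13, adjusted p = 0.0295). Neither gene overlapped between the groups. TNFRSF10C lost the call without a replicate 1 library: its adjusted p was 0.21 without iASPP siRNA+nutlin replicate 1 and 0.209 without p53+iASPP siRNA+nutlin replicate 1. The mitochondrial death genes BAX, BBC3 (PUMA) and PMAIP1 (NOXA) fell by 1.02, 1.27 and 0.75, and the survival gene BCL2L1 fell by 0.52. The 2 members that did not pass were BID (-0.68) and the desmosomal protein gene PERP, at 36.5 and 32.7 FPKM against 40.3 and 38.9 FPKM (-0.19, adjusted p = 0.299). With either replicate 1 library left out 10 members fell.

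Among 20 tested metabolic and redox targets, 9 fell and none rose, beside 4.82% fallen and 10.8% risen of all genes. The median was -0.63. SESN1, a sestrin that restrains mTORC1, had 2.39 and 5.39 FPKM in p53+iASPP siRNA+nutlin against 24.6 and 12 FPKM in iASPP siRNA+nutlin (-1.97 ± 0.4, adjusted p = 0.00794). Its relative SESN2 had 3.61 and 3.87 FPKM against 21.1 and 8.08 FPKM (-1.58, adjusted p = 0.00658). TIGAR, a phosphatase that slows glycolysis, had 3.81 and 6.36 FPKM against 27.7 and 15 FPKM (-1.85, adjusted p = 0.00232). In all of these iASPP siRNA+nutlin replicate 1 was the highest library, and no knockdown library reached a library with p53. CYFIP2, a cytoskeletal regulator, fell by 1.84, TM7SF3 by 1.42, the antioxidant enzyme GPX1 by 0.90 and the lysosomal fucosidase FUCA1 by 0.98. SCO2, a copper chaperone of respiration, had 48 and 34.9 FPKM against 40.5 and 40.1 FPKM and the groups overlapped (0.02, adjusted p = 0.952). Without p53+iASPP siRNA+nutlin replicate 1 the list had 4 falls, and the adjusted p was 0.0811 for SESN1 and 0.052 for SESN2. It had 6 falls without iASPP siRNA+nutlin replicate 1, and the adjusted p was then 0.0854 for SESN1.

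The DNA repair and checkpoint list moved both ways: of 11 tested genes 3 fell and 3 rose, with a median of 0.42. Of all genes tested 4.82% fell and 10.8% rose. RRM2B, the p53-inducible subunit of ribonucleotide reductase, had 7.62 and 23.7 FPKM in p53+iASPP siRNA+nutlin against 78.2 and 49 FPKM in iASPP siRNA+nutlin (-2.11 ± 0.46, adjusted p = 0.0117). The translesion polymerase gene POLH had 2.99 and 4.76 FPKM against 21.8 and 7.09 FPKM (-1.50, adjusted p = 0.0208), and XPC, a sensor of DNA lesions, had 4 and 8.23 FPKM against 14 and 13.1 FPKM (-1.10, adjusted p = 0.0237). The knockdown libraries were lower throughout, but these 3 calls were lost without either group's replicate 1, with the direction kept. RRM2B, POLH and XPC stood at -1.78, -0.76 and -1.05 without iASPP siRNA+nutlin replicate 1 and at -1.35, -1.24 and -0.66 without p53+iASPP siRNA+nutlin replicate 1. The adjusted p was 0.112 for RRM2B, 0.124 for POLH and 0.135 for XPC without iASPP siRNA+nutlin replicate 1, and without p53+iASPP siRNA+nutlin replicate 1 it was 0.0985, 0.144 and 0.179. RPA1, which coats single-stranded DNA, and the repriming polymerase gene PRIMPOL were among the rises (0.82 and 0.86), and with either replicate 1 library left out the list had 1 rise. PCNA, the sliding clamp of replication, had 182 and 232 FPKM against 262 and 216 FPKM, which overlap (-0.21, adjusted p = 0.316).

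Of 57 tested targets with other roles, 36 fell and 2 rose, beside 4.82% fallen and 10.8% risen of all genes. The median was -0.95. SERPINB5 (maspin), a serpin of epithelial cells, had 14.4 and 22.7 FPKM in p53+iASPP siRNA+nutlin against 168 and 69.4 FPKM in iASPP siRNA+nutlin (-2.52 ± 0.33, adjusted p = 0.00102). CD82, a tetraspanin of the cell surface, had 5.7 and 8.02 FPKM against 51.4 and 27.1 FPKM (-2.30 ± 0.34, adjusted p = 0.00176). The adhesion protein gene NINJ1 fell by 1.82, with all libraries apart. XRCC5, a subunit of the Ku heterodimer, and UBA2, a subunit of the SUMO-activating enzyme, rose by 0.36 and 0.70. PRDX5, a peroxiredoxin, had 474 and 473 FPKM against 449 and 500 FPKM. With either replicate 1 library left out 17 members of this list fell.

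Over the 5 lists of activated targets together, 124 of 149 genes could be tested. Of these 76 fell and 5 rose, beside 4.82% fallen and 10.8% risen of all genes. Their median was -0.94, against 0.09 over all genes. Both knockdown libraries were below both others in 95 of the 124, against 18.6% of all genes tested. The fall was smaller in replicate 2 for each of the 76, as it was for 488 of all 514 fallen genes. Over all genes tested, too, the median size of the difference was smaller in replicate 2 (0.203) than in replicate 1 (0.413). In p53+iASPP siRNA+nutlin, 102 of the 124 were higher in replicate 2 than in replicate 1 (median 0.30), and in iASPP siRNA+nutlin 27 of the 124 were (median -0.44), so the replicate 2 libraries lay closer together than the replicate 1 libraries. There were 40 falls without iASPP siRNA+nutlin replicate 1, and without p53+iASPP siRNA+nutlin replicate 1 there were 38. With the 4 libraries alone, or with the close pairs counted once, none passed.

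**Figure D2:**
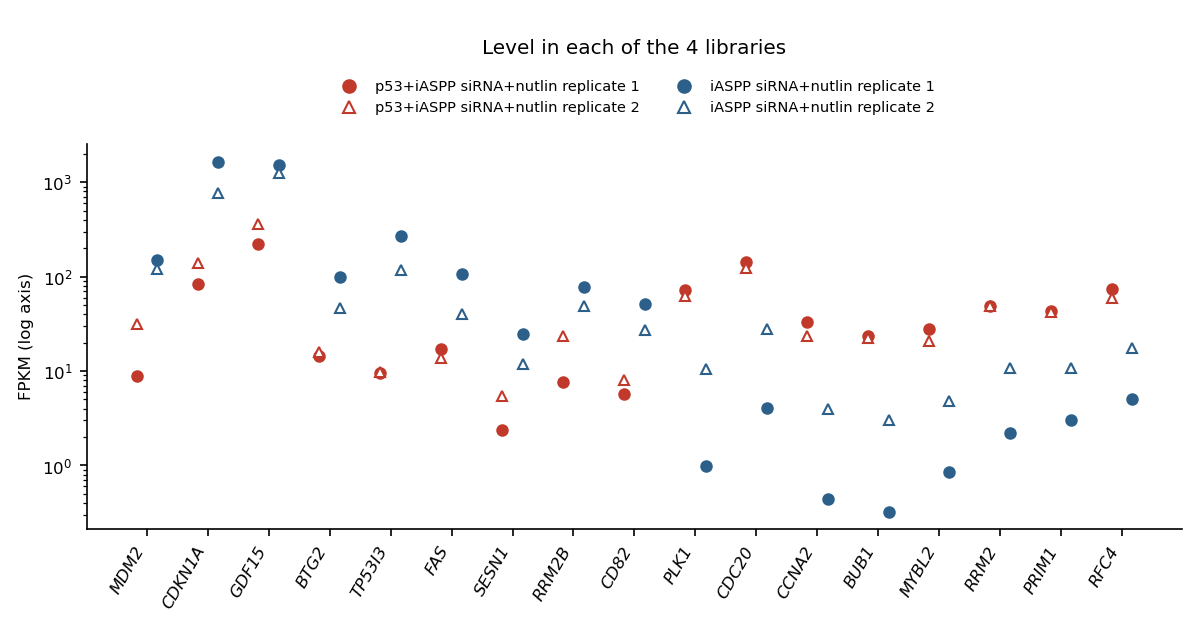
FPKM (log axis) of 17 genes in each of the 4 libraries, with p53+iASPP siRNA+nutlin in red left of iASPP siRNA+nutlin in blue, filled circles for replicate 1 and open triangles for replicate 2. From MDM2 to CD82 both red points lie below both blue ones, and from PLK1 to RFC4 both lie above, with iASPP siRNA+nutlin replicate 1 the lowest library of each of these 8 cell cycle genes.

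Of 48 genes of G2/M and mitosis 47 rose with p53 depleted and none fell, beside 10.8% risen and 4.82% fallen of all genes. The median was 2.71, and all 48 stood above 0. PLK1 (ENSG00000166851, chr16:23677656-23690367, plus strand), a kinase of mitotic entry, had 72.2 and 62.8 FPKM in p53+iASPP siRNA+nutlin against 0.987 and 10.4 FPKM in iASPP siRNA+nutlin. The knockdown libraries were close together, while those with p53 differed strongly, replicate 2 being the higher. PLK1 rose by 3.85 ± 0.56 (adjusted p = 0.00154), or by 5.20 in replicate 1 and 2.49 in replicate 2. CDC20, an activator of the anaphase-promoting complex, had 142 and 122 FPKM against 4.09 and 28 FPKM (3.45 ± 0.55, adjusted p = 0.00237). CCNA2, which encodes cyclin A2, had 33.3 and 23.3 FPKM against 0.438 and 3.97 FPKM (3.43 ± 0.43, adjusted p = 8.0e-04). BUB1, a kinase of the spindle checkpoint, had 23.8 and 22.3 FPKM against 0.323 and 3.03 FPKM (3.38 ± 0.36, adjusted p = 4.2e-04). In each of these genes every knockdown library was above every library with p53. CCNB1, CDK1, AURKB, BIRC5 and UBE2C rose by 2.66 to 3.28, and CDC25B and CENPE rose least, by 1.06 and 1.09. BUB3, which binds BUB1 at kinetochores, was the member that did not pass, with 26.9 and 37.6 FPKM against 21.3 and 30.9 FPKM. Both knockdown libraries were higher than both others in 47 members, against 30.8% of all genes tested. Between the replicates the median member moved by -0.09 in p53+iASPP siRNA+nutlin and by 1.24 in iASPP siRNA+nutlin, where 47 of 48 were higher in replicate 2. Leaving out any of the 4 libraries left between 45 and 48 rises, and with only these libraries in the fit, or with the close pairs counted once, none passed.

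Many mitotic genes carry a CHR, the promoter element to which the DREAM complex is recruited, and its core was looked for in the 250 bases before the RefSeq start of each gene (GRCh38.p14). The letters TTTGAA, on either strand, were found in 19 of the 41 G2/M genes with an entry (46.3%), in 1 of 43 G1/S genes (2.33%) and in 8 of 101 activated targets (7.92%). The share was 13.6% over all 27305 promoters and 7.91% over the 8409 of tested genes. CCAAT, the letters of the box bound by NF-Y, was found in 75.6% of the G2/M promoters, 55.8% of the G1/S promoters, 29.7% of the activated target promoters and 35.4% of those of tested genes. TTCCCGCC, a core bound by E2F factors, was found in 20.9% of the G1/S promoters, 9.76% of the G2/M promoters, 9.9% of the activated target promoters and 4.86% of those of tested genes. Each string was looked for by itself, and whether matches of different strings shared letters was not examined. The median difference was 2.73 in the 19 G2/M genes with the CHR core and 2.64 in the 22 without. The stretches around the core are shown for the 4 genes that hold it and rose most, with the bases on each side of it. The core begins 29 bases before the start in PLK1, 65 in CDC20, 20 in PRC1 and 116 in CEP55. CDC20 held 2 matches in the 250 bases, and the one nearer the start is shown. They read 5′ to 3′ on the strand of the gene, with the core in capitals. They are PLK1 at chr16:23678820-23678888 on the plus strand, CDC20 at chr1:43358876-43358961 on the plus strand, PRC1 at chr15:90994536-90994595 on the minus strand and CEP55 at chr10:93496456-93496541 on the plus strand. In CEP55 the core lies on the opposite strand and so reads TTCAAA. The match describes these letters and not a bound site.
PLK1: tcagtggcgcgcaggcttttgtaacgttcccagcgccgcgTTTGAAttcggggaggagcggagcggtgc
CDC20: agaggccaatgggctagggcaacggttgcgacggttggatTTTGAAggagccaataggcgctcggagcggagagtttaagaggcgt
PRC1: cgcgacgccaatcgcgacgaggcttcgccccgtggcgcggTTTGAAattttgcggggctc
CEP55: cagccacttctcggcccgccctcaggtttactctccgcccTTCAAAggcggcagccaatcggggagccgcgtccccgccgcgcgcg

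Of 51 genes of DNA replication and the G1/S transition 47 rose and none fell, beside 10.8% risen and 4.82% fallen of all genes. The median was 1.85, and 49 stood above 0. RRM2, the S phase subunit of ribonucleotide reductase, had 48.5 and 49.2 FPKM in p53+iASPP siRNA+nutlin against 2.23 and 10.9 FPKM in iASPP siRNA+nutlin (3.01 ± 0.43, adjusted p = 0.00133). RRM2 and the p53-induced subunit RRM2B thus moved in opposite directions. The primase gene PRIM1 had 43.3 and 42.4 FPKM against 3.03 and 10.7 FPKM (2.68, adjusted p = 0.00215), and RFC4, a subunit of the clamp loader, had 74.7 and 58.7 FPKM against 5.12 and 17.4 FPKM (2.66, adjusted p = 0.00133). EXO1, an exonuclease of mismatch repair, had 16.2 and 7.6 FPKM against 0.184 and 1.62 FPKM (2.79, adjusted p = 0.00285). No library of one group reached the other in these genes. The 6 subunits of the replicative helicase, MCM2 to MCM7, rose by 1.43 to 2.38. Of the members that did not pass, PCNA and CCNE1, which encodes cyclin E1, overlapped between the groups (-0.21 and -0.08), E2F2 also overlapped (0.29), and POLA2 had 4.07 and 5 FPKM against 1.1 and 1.18 FPKM, which do not overlap (1.37). CCNE2, which encodes cyclin E2, rose by 1.89. Leaving out 1 of the 4 libraries left 41 to 47 rises, and without both replicate 1 libraries there were 24.

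Of 17 tested genes of the DREAM and RB complexes and their partners, 7 rose and none fell, with a median of 0.26. Of all genes 10.8% rose and 4.82% fell. MYBL2 and FOXM1, counted among the 7, are also members of the G2/M list. MYBL2, which turns the MuvB core into an activator, had 28 and 20.7 FPKM in p53+iASPP siRNA+nutlin against 0.856 and 4.8 FPKM in iASPP siRNA+nutlin (2.93 ± 0.4, adjusted p = 0.00115), and FOXM1, its partner in mitotic transcription, rose by 3.03. The MuvB subunits LIN9, LIN52 and LIN54 rose by 0.64 to 1.05, while LIN37 did not pass (-0.48). RBL1, which encodes p107, rose by 0.95, whereas RBL2 (p130) and RB1 did not pass (-0.20 and -0.36). The rises numbered 4 without iASPP siRNA+nutlin replicate 1, and without p53+iASPP siRNA+nutlin replicate 1 there were 3. Among 13 tested cyclin-dependent kinases, their inhibitors and D cyclins, 5 rose and 3 fell. CDKN3, a phosphatase of cyclin-dependent kinases, had 61.1 and 84.3 FPKM against 13.8 and 16.5 FPKM and rose by 2.18 ± 0.17 (adjusted p = 1.2e-04), with nearly equal differences in replicate 1 (2.07) and replicate 2 (2.29). CCND1, which encodes cyclin D1, had 76.6 and 80.5 FPKM against 219 and 162 FPKM and fell by 1.25 ± 0.12 (adjusted p = 3.6e-04). CDK6 fell by 0.81. CDK2, the inhibitor genes CDKN1B (p27) and CDKN2C (p18) and CCND3 rose by 0.63 to 1.43, and without p53+iASPP siRNA+nutlin replicate 1 this list had 3 rises.

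The greatest changes included genes outside these lists. HMGB2, a chromatin protein of dividing cells, had 258 and 232 FPKM in p53+iASPP siRNA+nutlin against 6.71 and 42.6 FPKM in iASPP siRNA+nutlin (3.75 ± 0.55, adjusted p = 0.0017). ASF1B, a histone chaperone, had 33.6 and 32.2 FPKM against 0.313 and 6.86 FPKM (3.40, adjusted p = 0.00297). TMSB15A, a thymosin whose near-identical copy TMSB15B could share its reads, had 41.8 and 50.6 FPKM against 0 and 17.5 FPKM (3.45, adjusted p = 0.028). In each of them iASPP siRNA+nutlin replicate 1 was the lowest library. SULF2, an extracellular sulfatase of heparan sulfate, had 0.856 and 4.41 FPKM against 39.7 and 18.1 FPKM (-3.14 ± 0.62, adjusted p = 0.00721). LCE1C, a late cornified envelope gene in a family of similar copies, was listed at 0 and had 0.468 FPKM against 36.6 and 3.61 FPKM (-3.44, adjusted p = 0.00867). TMSB15A, SULF2 and LCE1C lost the call without p53+iASPP siRNA+nutlin replicate 1 (adjusted p = 0.108, 0.0744 and 0.0729), TMSB15A also without p53+iASPP siRNA+nutlin replicate 2 (0.0922), and SULF2 without iASPP siRNA+nutlin replicate 1 (0.0778).

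**Figure D3:**
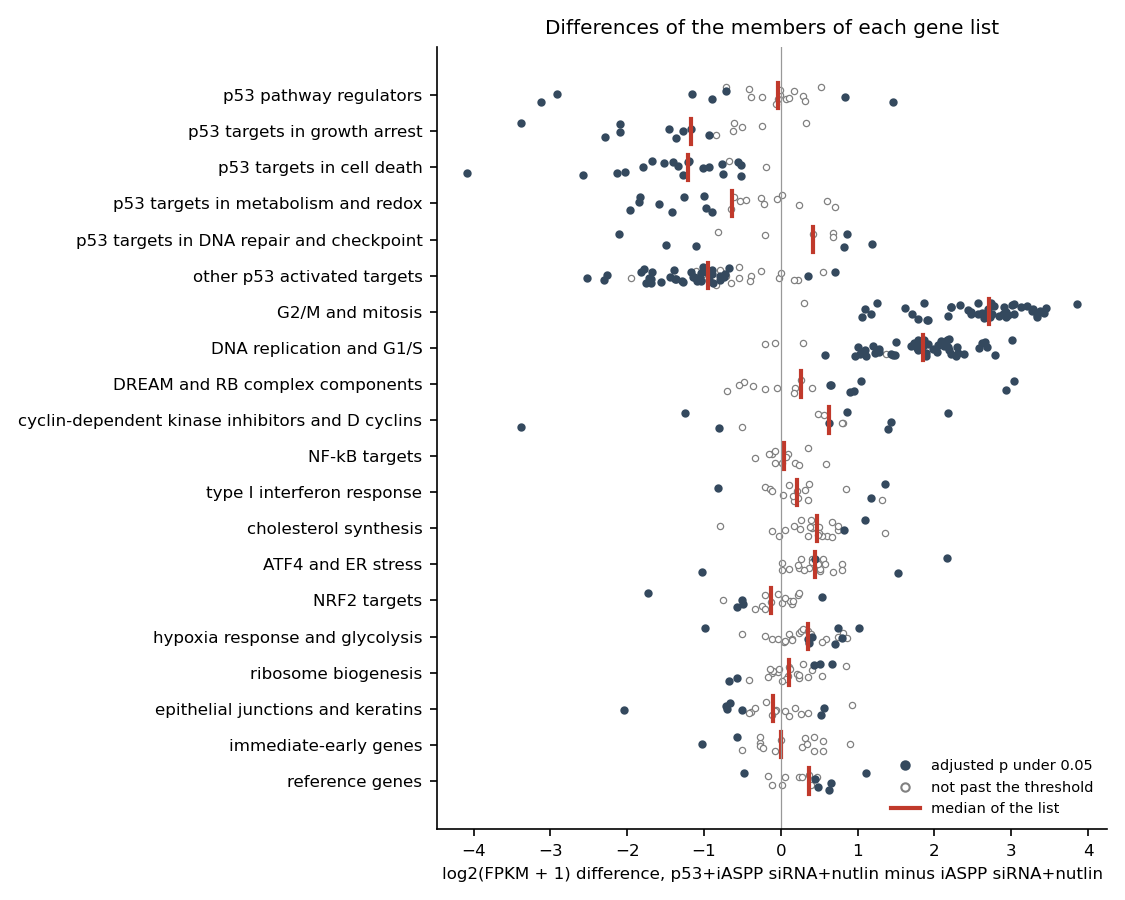
Log2(FPKM + 1) difference, p53+iASPP siRNA+nutlin minus iASPP siRNA+nutlin, of every tested member of 20 gene lists; filled points have an adjusted p under 0.05 in limma, open points do not, and red bars mark the list's median. The 2 cell cycle lists have medians of 2.71 and 1.85, growth arrest and cell death targets have medians of -1.17 and -1.21, and the other lists lie between.

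The response to p53 siRNA was next set beside that in cells that kept iASPP, where p53 siRNA+nutlin was compared with CTR siRNA+nutlin. These are 4 other libraries. There 1833 genes (17.2%) rose and 564 (5.29%) fell. Of the rises with iASPP siRNA, 898 were shared, which is 78.2% of them and 49% of the rises with iASPP present. Of the falls 326 were shared, 63.4% and 57.8% of the lists, and none was called in opposite directions. CDKN1A differed by -3.38 with iASPP siRNA and by -4.42 with iASPP present, MDM2 by -2.92 and -3.56, and TP53I3 by -4.08 and -4.75. Over the 124 activated targets the median was -0.94 with iASPP siRNA and -1.05 with iASPP present, with 71 falls in common. For G2/M genes it was 2.71 and 3.55, and for G1/S genes 1.85 and 2.35. In 47 of 48 G2/M genes the difference was smaller with iASPP siRNA. Taken by replicate, the G2/M median with iASPP siRNA was 3.35 in replicate 1 and 1.92 in replicate 2, so replicate 1 lay near the 3.55 with iASPP present and replicate 2 below it. The p53 siRNA+nutlin pair used here diverged as well.

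The difference between these 2 responses was tested as an interaction, and limma called 0 of 10662 genes. At an unadjusted p under 0.05 there were 774 (7.26%), and the lowest adjusted p was 0.47, for CDKN3. CDKN3 rose by 2.18 with iASPP siRNA and by 3.66 with iASPP present, a difference of -1.48 (unadjusted p = 6.1e-05). With iASPP present its level was 77.6 and 79.6 FPKM in p53 siRNA+nutlin against 5.72 and 4.9 FPKM in CTR siRNA+nutlin, so the levels with p53 siRNA overlapped and those without it were lower with iASPP present. CCND1 fell by 1.25 with iASPP siRNA and by 0.61 with iASPP present (interaction -0.64, unadjusted p = 0.00358), and CD82 by 2.30 and 3.56 (interaction 1.26, unadjusted p = 0.0245). Of the lists, 8 of 124 activated targets, 11 of 48 G2/M genes and 9 of 51 G1/S genes were under an unadjusted p of 0.05, with median interactions of 0.02, -0.71 and -0.49. By the other fits the count was 1 with a pseudocount of 0.1 FPKM, 1 with the close pairs counted once, 99 without iASPP siRNA+nutlin replicate 1, 22 without iASPP siRNA+nutlin replicate 2 and 12 without p53+iASPP siRNA+nutlin replicate 2. That no difference passed here does not show that the responses were alike.

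**Figure D4:**
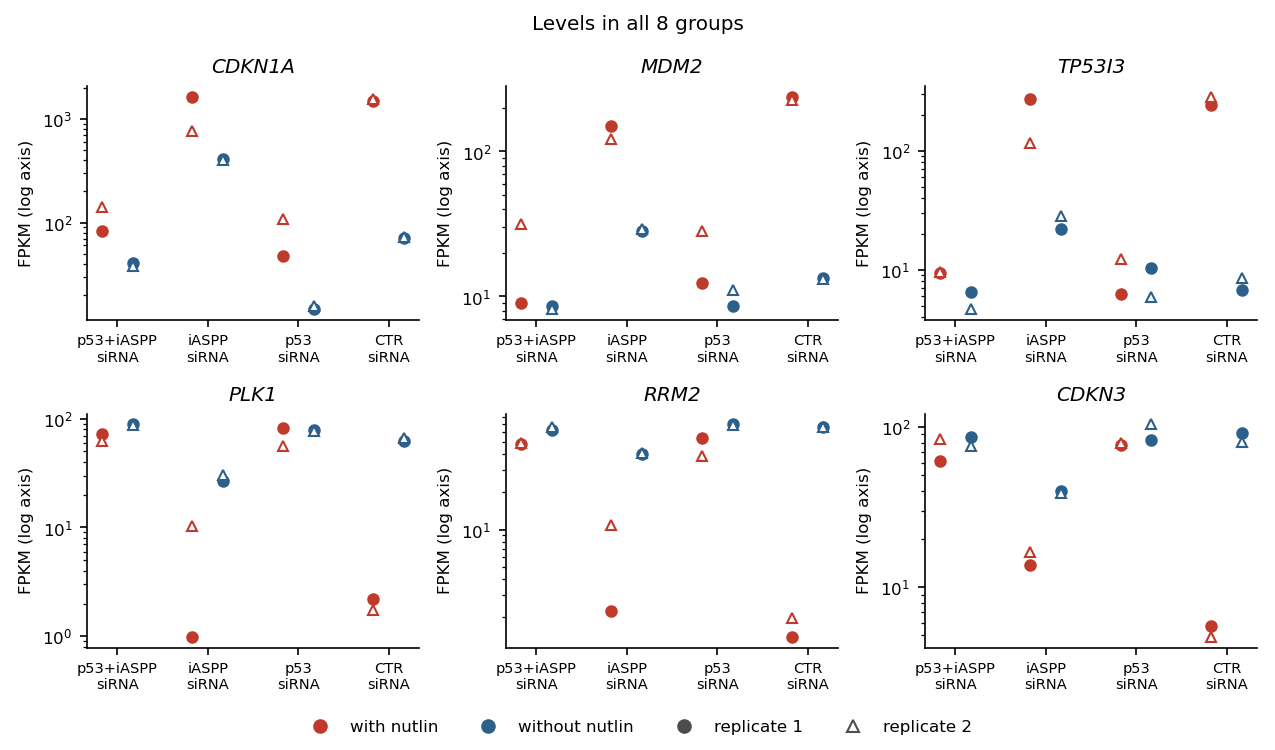
FPKM (log axis) of 6 genes in all 8 groups, with nutlin in red and without in blue, filled circles for replicate 1 and open triangles for replicate 2. In the nutlin groups with p53 siRNA, CDKN1A, MDM2 and TP53I3 lie below and PLK1, RRM2 and CDKN3 above the nutlin groups without it. For all 6 genes iASPP siRNA+nutlin replicate 2 lies nearer to the knockdown libraries than replicate 1 does, though by little for MDM2 and CDKN3.

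Without nutlin, p53+iASPP siRNA was compared with iASPP siRNA, again in 4 other libraries. There 45 genes (0.422%) rose and 59 (0.553%) fell. CDKN1A fell by 3.38 with nutlin and by 3.35 without it, while TP53I3 fell by 4.08 and 2.00 and MDM2 differed by -2.92 and by -1.67, the last value not past the threshold (adjusted p = 0.101). CD82 differed by -2.30 with nutlin and by 0.04 without. Of the activated targets, 76 fell with nutlin and 20 without (medians -0.94 and -0.47), of the G2/M genes 47 and 2 rose (2.71 and 1.07), and of the G1/S genes 47 and 1 (1.85 and 0.73). PLK1 differed by 3.85 with nutlin and by 1.60 without. The interaction again called 0 genes in limma, with 779 (7.31%) at an unadjusted p under 0.05 and a lowest adjusted p of 0.377. Under that unadjusted threshold were 26 of 124 activated targets, 42 of 48 G2/M genes and 35 of 51 G1/S genes, with median interactions of -0.34, 1.62 and 1.08. For CD82 the interaction was -2.34 (unadjusted p = 5.0e-04) and for CDKN1A -0.02 (unadjusted p = 0.968). Without iASPP siRNA+nutlin replicate 2, 658 genes passed, and 1 passed with a pseudocount of 0.1 FPKM, with only these groups in the fit or with the close pairs counted once. Leaving out a library without nutlin gave at most 3.

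**Figure D5:**
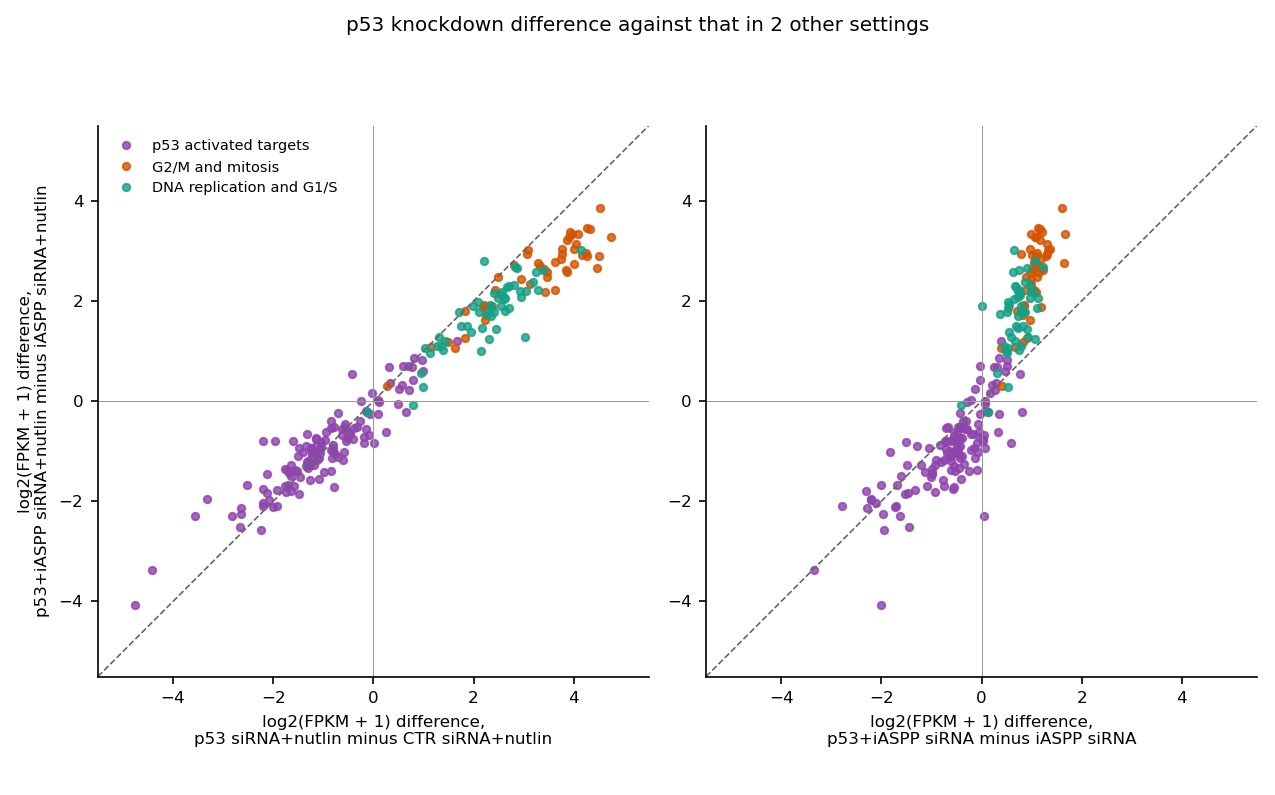
Difference with p53 siRNA in iASPP siRNA+nutlin cells (vertical axes, log2(FPKM + 1)) against that in nutlin-treated cells with iASPP (left) and in iASPP-depleted cells without nutlin (right), for tested members of 3 lists; dashed lines mark equal differences. Cell cycle genes lie mostly a little below the line on the left (G2/M medians 2.71 and 3.55) and well above it on the right (2.71 and 1.07).

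Lists of other pathways were read against the 10.8% of all genes that rose and the 4.82% that fell. Of 27 tested genes of hypoxia and glycolysis 7 rose and 1 fell, with a median of 0.35. LDHA, which makes lactate, had 911 and 950 FPKM in p53+iASPP siRNA+nutlin against 525 and 578 FPKM in iASPP siRNA+nutlin (0.75 ± 0.069, adjusted p = 3.0e-04), and TPI1, an isomerase of glycolysis, had 961 and 848 FPKM against 465 and 580 FPKM (0.80, adjusted p = 0.00101). In both genes all libraries were apart. The glucose transporter gene SLC2A1 fell by 0.99. Of 19 NRF2 targets 4 fell and 1 rose. FTH1, the ferritin heavy chain, which has many processed copies, had 8752 and 8291 FPKM against 12157 and 12068 FPKM (-0.51 ± 0.062, adjusted p = 7.4e-04), and TALDO1, an enzyme of the pentose phosphate pathway, rose by 0.54 (adjusted p = 0.00256). Without iASPP siRNA+nutlin replicate 1 there were 2 falls of NRF2 targets, and without p53+iASPP siRNA+nutlin replicate 1 there was 1.

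Of 20 epithelial junction and keratin genes 5 fell and 2 rose, with a median of -0.10. Of all genes 4.82% fell and 10.8% rose, so the share of rises was near that of all genes. KRT8 had 964 and 849 FPKM in p53+iASPP siRNA+nutlin against 1615 and 1352 FPKM in iASPP siRNA+nutlin (-0.71, adjusted p = 8.1e-04), and KRT18 had 774 and 754 FPKM against 1107 and 1052 FPKM (-0.50, adjusted p = 8.0e-04). These keratins pair in simple epithelia, and their genes overlap on opposite strands in the annotation, so reads of the shared stretch could be split between them. KRT19 fell by 0.70 and CEACAM1, an adhesion molecule, by 2.04, while EPCAM and OCLN rose by 0.52 and 0.56. There were 8 falls without p53+iASPP siRNA+nutlin replicate 2. KRT8 and KRT18 made up most of the summed markers of colon epithelium, which came to 1980 and 1862 FPKM in p53+iASPP siRNA+nutlin and 2869 and 2619 FPKM in iASPP siRNA+nutlin.

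In the remaining lists many calls were lost without a replicate 1 library. Of 24 cholesterol synthesis genes 2 rose, no larger a share than the 10.8% of all genes, among them EBP, a sterol isomerase (1.10, adjusted p = 0.0383), and the count ran from 0 without p53+iASPP siRNA+nutlin replicate 1 to 15 without iASPP siRNA+nutlin replicate 2. The median of this list was 0.50 higher in replicate 2 than in replicate 1 of p53+iASPP siRNA+nutlin and 0.86 higher in iASPP siRNA+nutlin, in 21 and 22 of 24 genes. Of 23 ATF4 and ER stress genes 3 rose and 1 fell, which is near the 10.8% risen and 4.82% fallen of all genes. ASNS, which makes asparagine, had 91.7 and 81.5 FPKM in p53+iASPP siRNA+nutlin against 19.8 and 43.9 FPKM in iASPP siRNA+nutlin (1.52, adjusted p = 0.00624). PHGDH, the first enzyme of serine synthesis, had 67.5 and 47.9 FPKM against 5.17 and 26.2 FPKM (2.16, adjusted p = 0.0138). Both genes had their lowest value in iASPP siRNA+nutlin replicate 1, and without p53+iASPP siRNA+nutlin replicate 1 the adjusted p was 0.0555 for ASNS and 0.104 for PHGDH, while the list had 1 rise without p53+iASPP siRNA+nutlin replicate 1 and 14 without iASPP siRNA+nutlin replicate 2. EBP lost the call without p53+iASPP siRNA+nutlin replicate 1 (0.131), and also without iASPP siRNA+nutlin replicate 1 (0.124) and without p53+iASPP siRNA+nutlin replicate 2 (0.113).

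Of 17 tested interferon response genes 2 rose and 1 fell, of 25 ribosome biogenesis genes 3 rose and 2 fell, and of 17 immediate-early genes 2 fell, beside 10.8% risen and 4.82% fallen of all genes, so that the shares of the first 2 lists lay near those of all genes. OAS3, an RNA sensor, rose by 1.17 (adjusted p = 0.00788) and ISG15, a ubiquitin-like modifier, fell by 0.82 (adjusted p = 0.0195). The nucleolar genes GNL3 and NPM1 rose by 0.66 and 0.51 (adjusted p = 0.00794 and 0.012), and the transcription factor genes ATF3 and MYC fell by 1.03 and 0.57 (adjusted p = 0.0314 and 0.0356). Without p53+iASPP siRNA+nutlin replicate 1 each of these 6 lost the call, at an adjusted p of 0.0515 for NPM1 to 0.214 for ATF3. All but NPM1 lost it without iASPP siRNA+nutlin replicate 1 (0.0501 for GNL3 to 0.196 for ATF3), MYC also lost it without iASPP siRNA+nutlin replicate 2 (0.0818), and NPM1 without p53+iASPP siRNA+nutlin replicate 2 (0.0537). Rises ran from 0 to 5 in the interferon list and from 0 to 7 in the ribosome list when 1 library was left out, each with the highest count without iASPP siRNA+nutlin replicate 2. Of 12 tested NF-kB targets none passed in limma, and none did with any of the 4 libraries left out. BIRC3, an inhibitor of apoptosis, had 1.35 and 1.75 FPKM against 3.16 and 1.48 FPKM, which overlap (-0.34, adjusted p = 0.328), and SOD2, a mitochondrial superoxide dismutase, had 10.4 and 11.1 FPKM against 9.04 and 8.88 FPKM (0.24, adjusted p = 0.191). Of 15 commonly used reference genes 5 rose and 1 fell, with a median of 0.37. HPRT1, of purine salvage, had 58.3 and 65.6 FPKM against 22.8 and 34.8 FPKM (1.11, adjusted p = 0.00292), and YWHAZ, a 14-3-3 protein gene, had 504 and 527 FPKM against 374 and 379 FPKM (0.45, adjusted p = 0.00134), while RPL13A fell by 0.48. The rises numbered 2 without iASPP siRNA+nutlin replicate 1, 8 without iASPP siRNA+nutlin replicate 2 and 3 with either p53+iASPP siRNA+nutlin library left out. These calls stood relative to a median of 0.09 over all genes, and GAPDH, at 5476 and 4633 FPKM against 4629 and 3990 FPKM, did not pass.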

How the data were processed

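The deposited table gives FPKM per gene as the authors computed it, and per the submitters' processing notes edgeR and the genome hg38 (GRCh38) were used. The sources used here do not name the aligner, the counting program or any use of strand. Per the labels' protocols, mRNA was purified on beads before library preparation. Columns were matched to samples by title. Symbols turned into dates (28) or blank (210) were filled from GENCODE release 29, which also gave positions. FPKM is not a count, so log2(FPKM + 1) was tested with limma 3.58.1 (R 4.3.3), over 8 group means of all 16 libraries, with an intensity trend, 8 residual and 3.15 prior degrees of freedom, and Benjamini-Hochberg adjustment over the 10662 genes whose mean reached 1 FPKM. The threshold was an adjusted p under 0.05. Interactions were differences of differences in that fit. The procedure was tested on simulated data in which a gene had the same spread in every library. That test therefore could not show what the unequal spread of the pairs does to the calls. Gene lists were written from textbook knowledge, and members, lists and rules were chosen with earlier results of these data known. Named genes (68) were PPP1R13L, MDM2, CDKN1A and others fixed by name, the 6 largest called rises and falls and the largest called interactions without overlap (no clone names or histones), 4 members of largest and 1 of smallest difference per target and cell cycle list, and 2 of smallest p per other list. Other list members named as examples were chosen after their values were seen. Some genes among these are not reported here. Promoters are RefSeq's. Alternatives were another pseudocount, other filters, scaling, a replicate block, sample weights, fewer groups, close pairs averaged, and libraries left out.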

Additional observations from a re-analysis of the deposited data

How the results depend on the processing

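In place of 1662 calls (1148 rises, 514 falls) there were 493 (363 and 130) with sample weights from arrayWeights, 2 (2 and 0) with only the groups compared in the fit, 1 (1 and 0) with the close pairs counted once, 574 to 3214 (418 to 2340 and 134 to 874) without any 1 of the 4 libraries, without both replicate 1 libraries 350 (270 and 80) and without both replicate 2 libraries 3033 (2002 and 1031). The sample weights kept all 16 libraries and were 0.301 for each iASPP siRNA+nutlin library and 0.552 for each p53+iASPP siRNA+nutlin library. The other settings named so far leave fewer libraries or let the diverging pairs set the spread. A pseudocount of 0.1 FPKM gave 1593 calls, no filter 1351, a minimum of 5 FPKM 1402 and scaling 1571. Activated targets fell in 76 cases, 41 with sample weights, 0 with only the groups compared, 0 with the close pairs counted once, 38 to 82 with 1 library left out, and 23 and 88 without both replicate 1 or both replicate 2 libraries. G2/M genes rose in 47 cases and G1/S genes in 47, each 0 with only the groups compared and 0 with the close pairs counted once, and with libraries left out 43 to 48 and 24 to 47. The p53 by iASPP interaction had 0 calls, 1 with a pseudocount of 0.1 FPKM, 1 with the close pairs counted once, 0 to 99 with 1 library left out, and 150 and 97 without both replicate 1 or both replicate 2 libraries. The p53 by nutlin interaction had 0 calls, 1 with that pseudocount, 1 with only the groups compared, 1 with the close pairs counted once, 0 to 658 with 1 library left out, and 6 and 60 without both replicate 1 or both replicate 2 libraries. HIST1H3D was the gene called with the close pairs counted once, in the main comparison and in both interactions. The cause of these changes was not tested.

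Replicate numbers are shared by label only. Deviations of same-numbered libraries correlated above 0.1 in 3 of 28 pairs of groups (-0.03 to 0.30), among them 0.17 between the groups compared. The numbers were therefore not taken as a pairing in the main fit. Differences given per replicate still set same-numbered libraries against each other, and that match rests on the label alone. With the replicate block there were 1652 calls (1152 rises, 500 falls) and 0 for either interaction.

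Of the 68 named genes 58 were called, and none of the 58 changed direction in any setting. Still called were 56 with a pseudocount of 0.1 FPKM, 51 with no filter, all 54 with a value at a minimum of 5 FPKM, 58 with scaling, 58 with the replicate block, 48 with sample weights and 0 with only the groups compared. Leaving out 1 library ended 19 of the 58 calls and moved 24 values by more than 1.5-fold. Among uncalled genes, PPP1R13L was -0.03 with a pseudocount of 0.1 FPKM, and SCO2 was -0.09 with scaling. With 1 library left out PPP1R13L ran from -0.56 to 0.76, SCO2 from -0.20 to 0.25, PCNA from -0.39 to -0.03, PRDX5 from -0.08 to 0.08 and BIRC3 from -0.71 to 0.04. Without both replicate 1 or both replicate 2 libraries PPP1R13L was 0.59 or -0.39, SCO2 -0.20 or 0.24, PCNA 0.11 or -0.53, PRDX5 -0.08 or 0.08 and BIRC3 0.15 or -0.82. Absolute depth is unknown, and iASPP siRNA+nutlin replicate 1 was the shallowest of the 4 libraries, which limits the low values that many of the mitotic genes had there.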

Other observations

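Replication-dependent histone genes, a group chosen after its values were seen, were higher with p53 depleted. Of 47 tested genes 25 rose and 2 fell in limma (background 10.8% and 4.82%), with a median difference of 2.19. Their FPKM over 70 listed genes summed to 8297 and 3557 in p53+iASPP siRNA+nutlin replicates 1 and 2, against 1381 and 1307 in iASPP siRNA+nutlin. Both sums with p53 siRNA were the higher, and the replicate 1 sum was more than that of replicate 2. HIST1H4C, which encodes histone H4, had 558 and 146 FPKM against 25.2 and 42.3 FPKM (3.09, adjusted p = 0.0126). HIST1H2BK, by contrast, had 458 and 320 FPKM against 482 and 274 FPKM, which overlap (0.08, adjusted p = 0.909). HIST1H3D did not pass in the main analysis (5.03, adjusted p = 0.0876) but passed with only the groups compared (adjusted p = 0.0243) and with the close pairs counted once (0.00217). It had 37.3 and 27 FPKM in p53+iASPP siRNA+nutlin and was listed at 0 in both iASPP siRNA+nutlin libraries. These genes have near-identical copies between which reads can be split, and most of their transcripts carry no poly(A) tail, so bead-purified mRNA holds an unknown part of them. The values of single histone genes are uncertain for that reason.

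Other genes outside the lists, likewise chosen after their values were seen, fell with p53 depleted. KRTAP2-3, a keratin-associated protein gene, had 8.4 and 21 FPKM in p53+iASPP siRNA+nutlin against 172 and 64.2 FPKM in iASPP siRNA+nutlin (-2.89, adjusted p = 0.00169). ACER2, an alkaline ceramidase, had 0.658 and 1.9 FPKM against 15.2 and 5.39 FPKM (-2.22, adjusted p = 0.00606). ISYNA1, which makes inositol phosphate, had 64.8 and 95.9 FPKM against 331 and 227 FPKM (-1.78, adjusted p = 4.2e-04). In each the knockdown libraries lay below both others, and in each iASPP siRNA+nutlin replicate 1 was the highest library.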
